A study of Homo sapiens with 6 samples.

Results

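The genes of the mitochondrial ribosomal proteins were read in chromatin profiles of SON and HMGB2 from IMR90 cells, an established line of human embryonic lung fibroblasts. The group was chosen with earlier results of these data known. Its genes were taken by symbol, as GRCh38 RefSeq protein-coding genes on chromosomes 1 to 22 and X named MRPL or MRPS with a number and optional letters. This gave 77 genes, 49 MRPL and 28 MRPS, of 19970 protein-coding genes. For SON there were untreated cells and cells given 3 or 6 days of a treatment that the labels call ICM without expanding it, and for HMGB2 untreated cells. Cells for SON were fixed with formaldehyde, and cells for HMGB2 with EGS, a longer crosslinker, and then formaldehyde, so any contrast of the targets includes that of the fixation. The assay, ChIPmentation, tags antibody-bound chromatin with sequencing adapters by a transposase on the beads. Each group is 1 deposited peak list, so no test between groups could be made, and the depth of the libraries is unknown. The series also lists an HMGB2 input and an HMGB2 DSG sample, not analysed here.

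Mitochondria make a small set of respiratory chain proteins on ribosomes of their own. The RNA of these ribosomes comes from mitochondrial DNA, while all of their proteins are encoded in the nucleus, made in the cytosol and imported. Some of these proteins have counterparts in bacterial ribosomes, and others exist only in mitochondria. SON is a large scaffold protein of nuclear speckles, bodies rich in splicing factors, and HMGB2 is a DNA-bending protein of the high mobility group that is lost from chromatin as cells enter senescence.

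A SON peak lay in the gene span or within 5 kb of it at 65 of the 77 genes in untreated cells (84.4%), where 57.1% of all protein-coding genes had such a peak. At 3 days of ICM it was 50 genes (64.9%) against 41.0% of all genes, and at 6 days 24 genes (31.2%) against 21.5%. HMGB2 peaks lay at 27 genes (35.1%) against 23.3%. The share of mitochondrial ribosomal protein genes was above that of all genes in each of the 4 lists. These genes are short, with a median span of 8.62 kb against 24.2 kb for all genes. Of the 39 with a span inside the middle 50% of their own spans, 36 (92.3%) had an untreated SON peak, against 50.4% of all genes in that range of spans.

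The SON lists differ in length, from 22216 peaks without treatment to 11028 at 3 days and 5481 at 6 days on the chromosomes used. When only the 5481 strongest peaks of every list were used, a peak lay at 32 genes without treatment, 31 at 3 days and 24 at 6 days, against 26.3%, 27.2% and 21.5% of all genes. With a global irreproducible discovery rate (IDR, the expected share of lines that would not repeat between replicates) of at most 0.05, it was 53, 27 and 8 genes, against 45.0%, 24.0% and 5.02% of all genes, which were in the same order. At equal list lengths the untreated and 3-day counts were 1 gene apart, and over all genes the 3-day share was the higher. The other settings leave lists of unequal length, so the order of these counts cannot be told apart from list length.

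A peak's strength is given as the authors' −log10 p in its own list, with its rank, 1 being the strongest. Among the genes with a peak, the strongest peak had a median −log10 p of 14.7 (5.66 to 148) without treatment, 11.1 (5.38 to 173) at 3 days, 10.2 (6.27 to 42.5) at 6 days and 9.87 (5.19 to 44.4) for HMGB2. As a percentile within the list, where 100 is the strongest, these medians were 72.3, 65.6, 70.2 and 53.8. Over all protein-coding genes with a peak the medians were 72.1, 66.6, 60.3 and 59.8. In untreated cells, mitochondrial ribosomal protein genes thus had a peak more often than other genes, while the median strength of the peaks present was close to that of other genes. At 6 days the median was above that of all genes by the value of the weaker replicate and below it by that of replicate 1 (57.6 against 60.4).

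**Figure D1:**
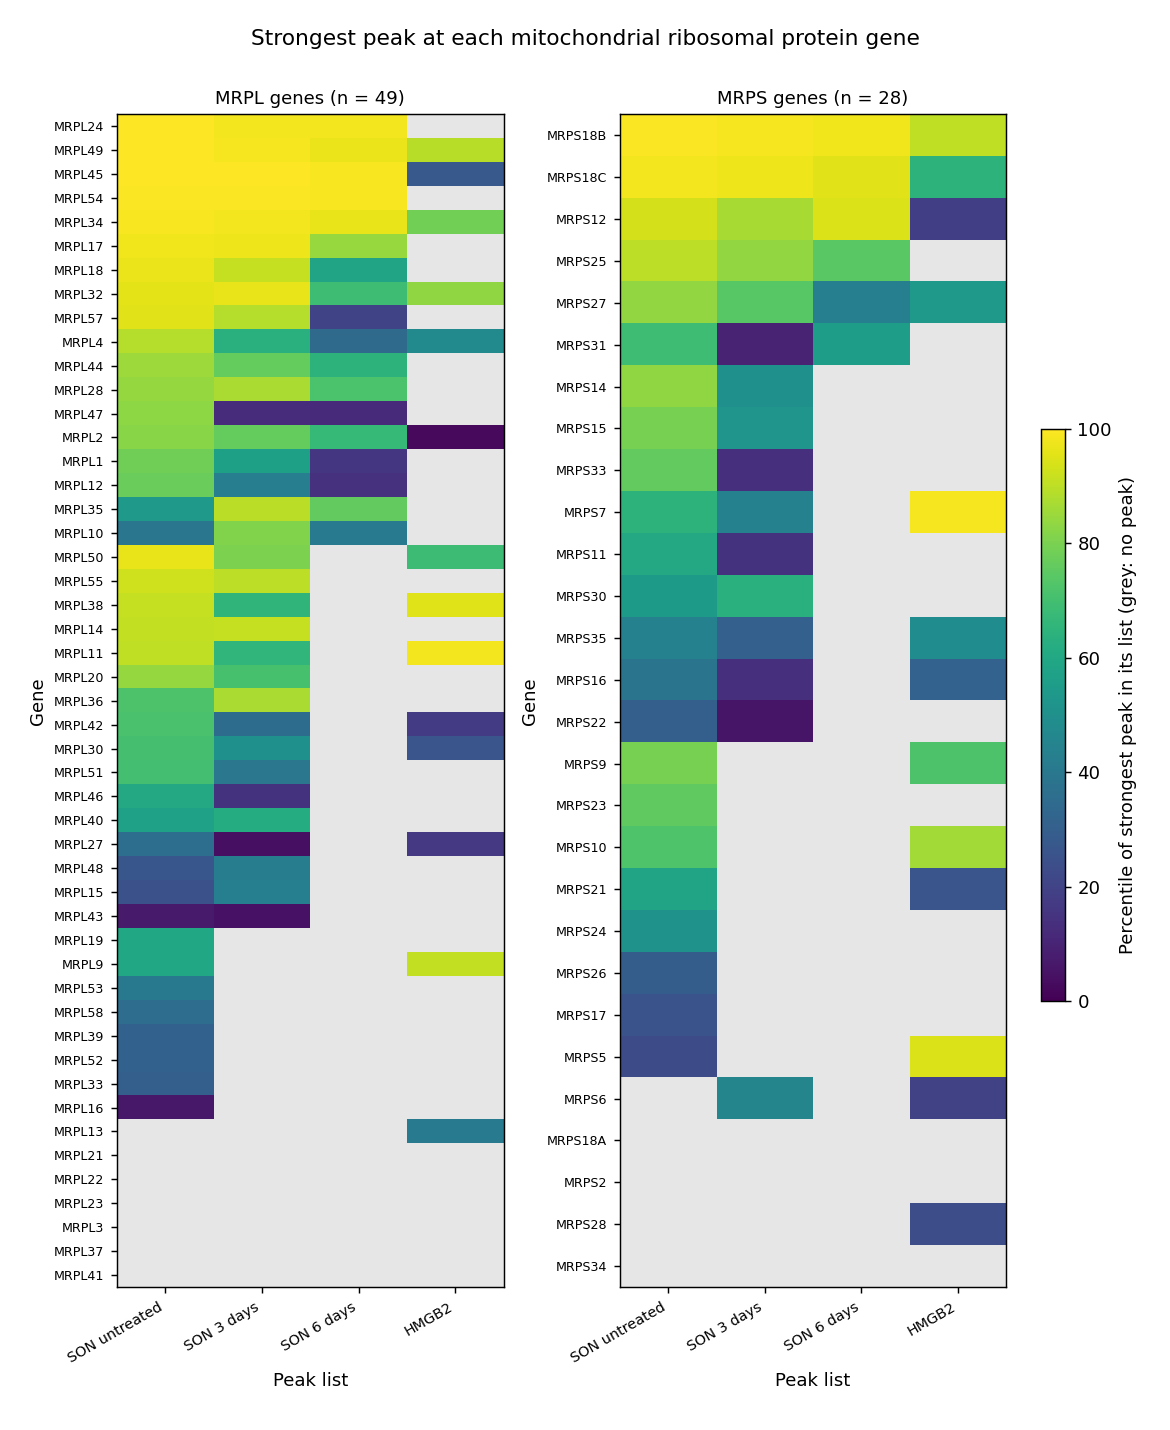
Percentile of the strongest peak of each gene within its list (colour, 0 to 100, grey for no peak), by list (columns) for the 49 MRPL and 28 MRPS genes (rows), ordered by the SON lists that hold a peak. The 5 genes at the top of the untreated SON column, among them MRPL24, MRPL45 and MRPS18B, are also near 100 at 3 and 6 days, while the HMGB2 column follows another order.

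The peaks were concentrated on the starts of the genes. A RefSeq start was on hand for 69 of the 77 genes, and for 15812 protein-coding genes in all. An untreated SON peak covered the start of 58 of the 69 (84.1%), against 35.7% of all starts. At 3 days 39 starts were covered (56.5%) against 25.1%, at 6 days 17 (24.6%) against 9.25%, and by HMGB2 14 (20.3%) against 7.58%. In untreated cells 62 of 78 peak and gene pairs had the summit within 1000 bp of the gene's start, and the strongest peak of a gene had its summit at a median of -87 bp, negative being upstream. The medians at 3 days, at 6 days and for HMGB2 were -85, -115 and -83.5 bp. Most of the peaks at these genes therefore sat on the promoter, just before transcription begins, in all 4 lists.

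**Figure D2:**
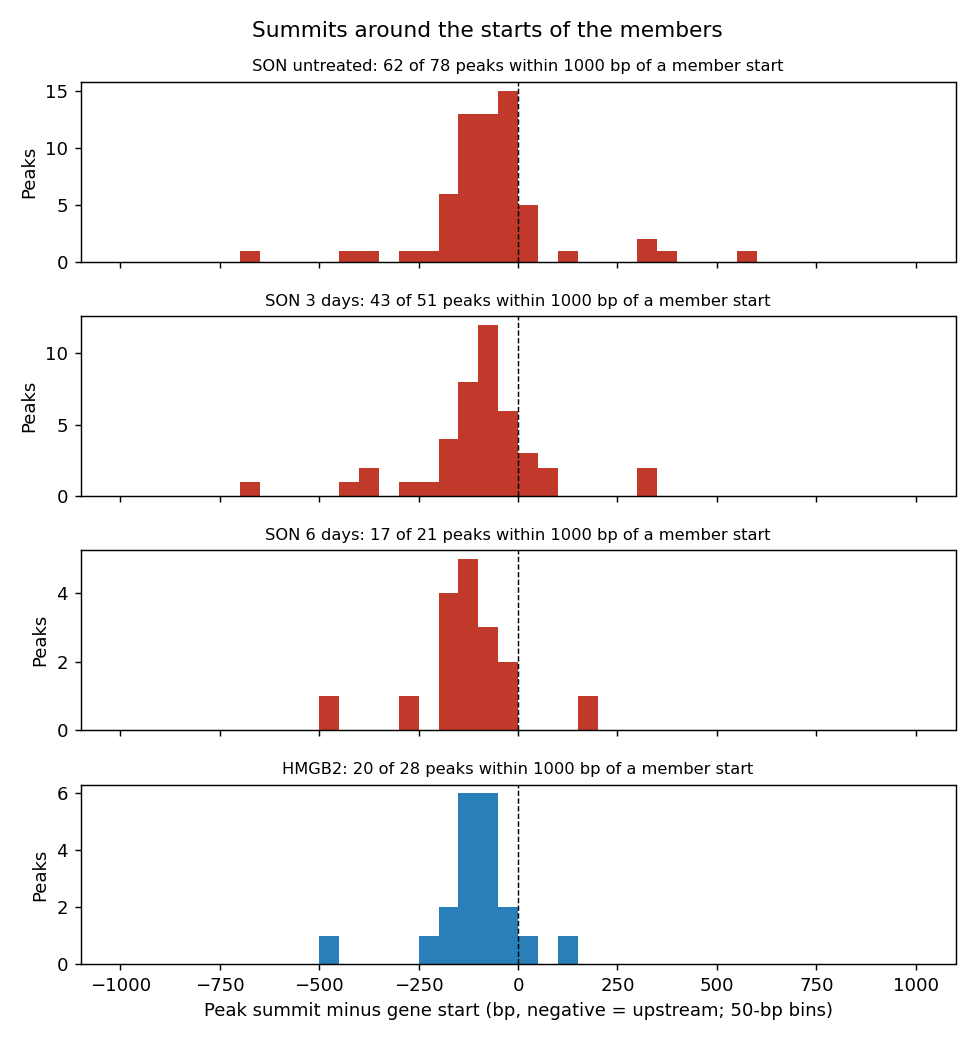
Distance of each peak summit from the start of its gene (x axis, bp, negative is upstream) as the number of peaks per 50-bp bin (y axis), for pairs within 1000 bp, in each list. The summits pile up just upstream of the start, for example 48 of the 78 untreated SON pairs within the 250 bp before it.

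The 250 bases before the start of 6 genes are shown to let the promoters be compared, from the RefSeq promoter table of GRCh38.p14. The first 4 are those with the strongest untreated SON peak over the start among promoters whose 250 bases lie in no protein-coding gene span. This leaves out MRPL24 and MRPS18C. The last 2, MRPL3 and MRPS18A, were picked as examples of genes with no peak in any list. Capitals mark matches to the motifs described further on, which are NRF1, ETS, SP1, CCAAT, TATA and E-box letters in these sequences.
MRPL45 (chr17:38296918-38297167, plus strand): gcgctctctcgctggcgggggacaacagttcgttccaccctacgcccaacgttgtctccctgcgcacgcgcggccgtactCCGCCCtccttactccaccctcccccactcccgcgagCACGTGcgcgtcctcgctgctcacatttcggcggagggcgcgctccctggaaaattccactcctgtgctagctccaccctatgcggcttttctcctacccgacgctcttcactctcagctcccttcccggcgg
MRPL54 (chr19:3762432-3762681, plus strand): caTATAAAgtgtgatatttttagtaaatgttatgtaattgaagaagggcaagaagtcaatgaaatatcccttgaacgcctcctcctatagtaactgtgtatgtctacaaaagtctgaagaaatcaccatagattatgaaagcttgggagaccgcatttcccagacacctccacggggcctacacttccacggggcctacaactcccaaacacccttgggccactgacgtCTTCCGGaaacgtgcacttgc
MRPS18B (chr6:30617590-30617839, plus strand): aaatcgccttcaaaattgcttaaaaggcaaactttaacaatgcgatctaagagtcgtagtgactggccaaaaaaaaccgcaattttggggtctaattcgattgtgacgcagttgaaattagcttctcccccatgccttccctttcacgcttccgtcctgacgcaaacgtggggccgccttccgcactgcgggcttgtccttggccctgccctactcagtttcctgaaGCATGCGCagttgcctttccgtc
MRPL17 (chr11:6683341-6683590, minus strand): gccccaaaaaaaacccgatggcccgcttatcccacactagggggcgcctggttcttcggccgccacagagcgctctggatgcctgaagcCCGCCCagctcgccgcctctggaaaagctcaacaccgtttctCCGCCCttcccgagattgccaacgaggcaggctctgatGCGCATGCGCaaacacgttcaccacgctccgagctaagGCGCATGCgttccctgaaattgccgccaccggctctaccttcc
MRPL3 (chr3:131502972-131503221, minus strand): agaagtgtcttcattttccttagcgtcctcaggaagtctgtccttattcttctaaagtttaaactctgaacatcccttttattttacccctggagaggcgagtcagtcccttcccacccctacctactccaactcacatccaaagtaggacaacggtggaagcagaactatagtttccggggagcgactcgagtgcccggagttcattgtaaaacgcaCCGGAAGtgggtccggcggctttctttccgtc
MRPS18A (chr6:43687792-43688041, minus strand): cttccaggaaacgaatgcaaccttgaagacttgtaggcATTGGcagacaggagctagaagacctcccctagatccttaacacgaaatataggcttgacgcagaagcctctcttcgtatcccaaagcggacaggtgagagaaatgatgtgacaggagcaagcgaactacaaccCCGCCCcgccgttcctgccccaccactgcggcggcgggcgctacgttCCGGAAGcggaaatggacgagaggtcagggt
GC content of these 6 stretches ran from 44.8% in MRPL54 to 66% in MRPL45, so the strongly covered promoters included both the poorest and the richest of them.

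The same 5 genes had the strongest peaks in all 3 SON lists. MRPL24, a large-subunit protein with a bacterial counterpart, had a −log10 p of 148 in untreated cells (rank 45), 61.9 at 3 days (rank 195) and 30.7 at 6 days (rank 93), on chr1:156740965-156741579 in the untreated list. MRPL45, which holds the ribosome at the inner membrane near the exit of the nascent chain, had 128, 173 and 40.3 (ranks 63, 37 and 56). MRPL54, a large-subunit protein found only in mitochondria, had 105, 154 and 42.5 (ranks 93, 48 and 50). These 3 peaks covered the gene's own start in every SON list, and all stood within the strongest 2% of their lists.

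MRPS18B, a small-subunit protein, had 90.8, 73.0 and 28.1 (ranks 129, 135 and 108), and its peak also covered the start of PPP1R10, a neighbour read in the other direction. MRPL49 had 135, 69.4 and 23.4 (ranks 55, 152 and 170), but the summit of this untreated peak lay at -4330 bp from its start, and the peak covered the start of ZNHIT2. A second untreated peak on chr11:65122065-65122478, with a −log10 p of 19.2, covered the start that MRPL49 shares with FAU. Neither MRPS18B nor MRPL49 can therefore be credited with its strongest peak alone.

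The 2 deposited replicate values of these peaks show the spread within a list. The untreated value of MRPL45 was 128 in both replicates, and the values at 3 days were 173 and 561 and at 6 days 40.3 and 74.0. For MRPL54 they were 105 in both, 154 and 530, and 42.5 and 94.3. For MRPL24 they were 148 in both, 61.9 and 167, and 30.7 and 34.0. For MRPL45 and MRPL54 the untreated value lay below both replicates at 3 days and above both at 6 days, while for MRPL24 it lay between those at 3 days. Since −log10 p depends on depth, which is unknown, these values are not levels of binding to be compared between lists.

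The MRPS18 family has 3 paralogues placed at different sites of the ribosome. MRPS18C, the counterpart of the bacterial protein, had SON peaks of 53.9, 50.2 and 19.7 in the untreated, 3-day and 6-day lists, over its own start and that of HELQ. MRPS18B stood as given above, and MRPS18A, a component of the large subunit despite its symbol, had no peak in any list. Of this family, 2 members were thus among the strongest and 1 had nothing listed.

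Of the 77 genes, 24 had a peak in every SON list (31.2%, against 20.3% of all genes). A further 25 were listed without treatment and at 3 days but not at 6, 16 without treatment only, 1 at 3 days only and 11 in no SON list. The untreated −log10 p had a median of 28.0 (8.58 to 148) in the 24 genes listed throughout, 14.1 (5.74 to 41.8) in the 25 and 8.48 (5.66 to 17.5) in the 16, with ranges that overlap. All 49 genes with a peak both without treatment and at 3 days had overlapping ones (63.6% of the 77, against 39.4% of all genes). The same held for all 24 at 6 days (31.2% against 20.4%). This was near the rule for other genes, since 7877 of the 8002 genes with both peaks overlapped at 3 days and 4070 of 4240 at 6 days. Across the 49, the strongest values in untreated cells and at 3 days had a Spearman correlation of 0.81, a description over genes that share both libraries.

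Once an untreated peak was present, these genes kept it about as often as other genes. Of the 65, 49 (75.4%) had a peak at 3 days and 24 (36.9%) at 6 days, against 70.2% and 37.2% of all genes with an untreated peak. Of the 58 covered starts, 38 (65.5%) were covered at 3 days and 17 (29.3%) at 6 days, against 68.0% and 25.8%. The higher shares in the treated lists went with the higher share in untreated cells.

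A global IDR of at most 0.05 at 6 days was met by 8 genes, and the same 8 met 0.01: MRPL24, MRPL34, MRPL45, MRPL49, MRPL54, MRPS12, MRPS18B and MRPS18C. They are 10.4% of the 77 genes, where 5.02% and 2.68% of all genes met these limits. MRPS12, a protein of the decoding centre, had 30.7, 18.9 and 18.2 in the 3 SON lists, with a rank of 1447 in untreated cells and 284 at 6 days, at the start it shares with SARS2, the mitochondrial seryl-tRNA synthetase. MRPL34, a small protein with a bacterial counterpart, had 68.8, 61.9 and 21.9 at a site 13115 bp downstream of its start, within 5 kb of DDA1 and ABHD8. At the other 16 genes the 6-day peaks were listed above an IDR of 0.05 and are weakly supported.

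Among these 16, MRPL17 had 49.3, 53.6 and 12.6, MRPL18 44.5, 24.2 and 9.11 and MRPL32 38.6, 44.1 and 10.0 in the 3 SON lists, in the order untreated, 3 days, 6 days. MRPL18 belongs to the central protuberance of the large subunit, and its peak also covered the start of TCP1, a chaperonin subunit. MRPL32 shares its covered start with the proteasome gene PSMA2. MRPL12, which belongs to the stalk that recruits translation factors, had 16.5, 8.42 and 6.40 over its own start, and MRPL4 had 23.8, 10.7 and 7.61 over its own.

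At a few genes the site differed between lists. MRPL10, the base of the stalk, had 2 untreated peaks, 8.58 over the start of OSBPL7 and 7.49 inside MRPL10, and at 3 and 6 days only the inner site was listed, with 15.3 and 7.98. MRPL2, a core protein of the peptidyl transferase region, had 18.9 and 13.5 at 1 site in untreated cells and at 3 days, while its 6-day peak of 9.83 lay at a second site, where the earlier lists held 11.5 and 10.7. MRPL1 had an untreated peak over its start (16.9) and another 59033 bp into the gene (14.7), and at 6 days only the inner site was listed, with 6.52. MRPS27, which binds RNA as a pentatricopeptide repeat protein, had untreated peaks of 19.9 at the start and 19.8 at 11759 bp inside the gene, and only the inner site was listed at 6 days, with 8.08. MRPL35 had its peak on chr2:86194835-86195828 over the start of IMMT. It had 10.5 in untreated cells (rank 10178, percentile 54.2) and 21.9 at 3 days (rank 1134, percentile 89.7). Its replicate values were 10.5 in both in untreated cells and 21.9 and 43.9 at 3 days.

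No list held a peak at 9 genes: MRPL3, MRPL21, MRPL22, MRPL23, MRPL37, MRPL41, MRPS2, MRPS18A and MRPS34. They are 11.7% of the 77, against 40.3% of all genes without a peak in any list. MRPL3, MRPL22 and MRPL23 are counterparts of core bacterial proteins, the last of these at the tunnel exit, and MRPS34 is specific to mitochondria. MRPL13 and MRPS28 had an HMGB2 peak and no SON peak, with a −log10 p of 8.82 and 7.49. MRPS6 had no untreated SON peak, a 3-day peak of 8.64 over the start it shares with SLC5A3, and an HMGB2 peak of 7.16 that lay 55789 bp from that start.

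Taking each gene by its strongest peak, the weakest in the untreated SON list were MRPL16, with a −log10 p of 5.66 (rank 20756), MRPL43 with 5.74 and MRPS5 with 7.08. MRPL16 had no peak at 3 or 6 days, and MRPL43 had 5.51 at 3 days. MRPL58, a peptidyl-tRNA hydrolase built into the large subunit, had 8.24 in untreated cells alone. MRPS9, with 17.5, and MRPS23, with 15.8, were the strongest of the 16 genes that no later SON list holds, so these genes were not all near the bottom of the untreated list.

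Large and small subunit genes were compared by symbol, although MRPS18A and MRPS30 carry systematic names of the large subunit. SON peaks lay at 42 of 49 MRPL genes (85.7%) and 23 of 28 MRPS genes (82.1%) without treatment, 34 (69.4%) and 16 (57.1%) at 3 days and 18 (36.7%) and 6 (21.4%) at 6 days. HMGB2 peaks lay at 14 MRPL genes (28.6%) and 13 MRPS genes (46.4%). Over all genes the shares were 57.1% without treatment, 41.0% at 3 days, 21.5% at 6 days and 23.3% for HMGB2. The MRPS share at 6 days was thus close to that of all genes. The MRPL share was the higher at 6 days and the MRPS share the higher for HMGB2, and neither difference was tested. By systematic names, which 75 of the genes carry in the RefSeq table, untreated SON peaks lay at 21 of 26 genes of proteins common to all ribosomes (80.8%), 16 of 18 of those shared with bacteria alone (88.9%) and 27 of 31 of those found only in mitochondria (87.1%). With the subunits taken from these names, untreated SON peaks lay at 43 of 51 large-subunit genes (84.3%) and 21 of 24 small-subunit genes (87.5%), the reverse of the order by symbol. The shares were 35.3% and 25% at 6 days and 27.5% and 50% for HMGB2.

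Many of the peaks could belong to a neighbour as well. Of the untreated peak and gene pairs, 65.5% also lay within 5 kb of another protein-coding gene, and of the 53 strongest peaks over the gene's own start 12 covered another start too. Among the 61 genes with a RefSeq start on hand and an untreated peak, the strongest peak covered only a neighbour's start at 5: ZNHIT2 at MRPL49, CCNL2 at MRPL20, NCAPD2 at MRPL51, DNAJC9 at MRPS16 and MMP14 at MRPL52. MRPL10 and MRPL35, whose own starts were not on hand, had theirs outside the gene, over the starts of OSBPL7 and IMMT. MRPL46 and MRPS11, which lie head to head, share a single peak on chr15:88467342-88467845, with 11.7 in untreated cells and 6.42 at 3 days. With each peak given only to the nearest gene span, SON peaks lay at 53, 39 and 16 genes (68.8%, 50.6% and 20.8%) and HMGB2 peaks at 19 (24.7%). All genes then had 48.8%, 33.4%, 17.2% and 18.6%, and the 6-day shares were the closest.

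The 5 genes with the strongest HMGB2 peaks were other genes than the 5 with the strongest SON peaks, though some ranked high for both. Its strongest peaks lay at MRPS7, with a −log10 p of 44.4, a rank of 76 and an 8.02-fold enrichment, MRPL11 (36.6, rank 101, 6.29-fold), MRPL38 (21.4, rank 284, 7.75-fold), MRPS5 (20.9, rank 303, 7.13-fold) and MRPL9 (17.6, rank 555, 8.12-fold). These peaks covered the gene's own start. Their untreated SON peaks were 12.6 at MRPS7, 25.6 at MRPL11, 26.6 at MRPL38, 7.08 at MRPS5 and 11.5 at MRPL9, so MRPL11 and MRPL38 reached the upper quartile of the group's SON values, 25.6. Of the 5 genes with the strongest SON peaks, MRPS18B (17.4, rank 573) and MRPL49 (16.9, rank 638) came next after MRPL9 for HMGB2. Neither of these HMGB2 peaks lay on the gene's strongest SON peak. The HMGB2 peak that did had 13.1 (rank 1355) at MRPS18B and 8.52 (rank 3827) at MRPL49. MRPL45 had an HMGB2 peak of 7.79, and MRPL24 and MRPL54 had none. MRPL11 belongs to the factor-binding region of the large subunit and MRPS7 to the head of the small one.

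The 2 targets nevertheless had overlapping peaks at most genes that held both. Of the 24 genes with an untreated SON peak and an HMGB2 peak, 23 had overlapping ones (29.9% of the 77, against 18.4% of all genes). MRPL27 was the exception, with its HMGB2 peak 8372 bp from the start. Overlap was common at other genes too, since 4322 of all genes had both peaks and 3668 had overlapping ones. Across the 24, the strongest SON and HMGB2 values had a Spearman correlation of 0.17. Among genes with an untreated SON peak, 36.9% of these and 37.9% of all genes had an HMGB2 peak. Peaks in every list were present at 10 genes, 13% of the 77 against 10.6% of all genes, so the 2 shares were near each other. The 10 were MRPL2, MRPL4, MRPL32, MRPL34, MRPL45, MRPL49, MRPS12, MRPS18B, MRPS18C and MRPS27.

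The other genes of mitochondrial translation were read from fixed lists. Of 5 ribosomal proteins with other symbols, DAP3, PTCD3, AURKAIP1, CHCHD1 and GADD45GIP1, all had an untreated SON peak, 4 had one at 3 days and 2 at 6 days, and 4 had an HMGB2 peak, with AURKAIP1 the strongest at 87.6. Of 19 mitochondrial aminoacyl-tRNA synthetases the counts were 18, 16, 11 and 7, led by CARS2 with 96.2. Of 13 translation factors they were 9, 10, 4 and 4, with TUFM, the elongation factor, at 37.2. Of 26 assembly and rRNA modification genes they were 24, 17, 10 and 7. Over all genes the shares were 57.1% in untreated SON, 41.0% at 3 days, 21.5% at 6 days and 23.3% for HMGB2. The HMGB2 share of the assembly and modification genes, 26.9%, was close to the last of these. Counted over the span plus 5 kb, the synthetases had the highest 6-day share of these gene lists, 57.9%. Their median span was also the longest, 33.9 kb against 4.11 to 25 kb. By covered starts at 6 days they had 31.2% of 16, below the assembly and modification genes with 33.3% of 24. The proteins with other symbols had 40% of 5 and the translation factors 25% of 12, where 9.25% of all starts were covered.

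High shares were also seen in other groups of genes for basic cell machinery. An untreated SON peak covered the start of 87.5% of 64 cytosolic ribosomal protein genes, 75% of 32 complex I subunit genes and 79.4% of 34 proteasome subunit genes, beside the 84.1% above. At 6 days the shares were 21.9%, 25% and 23.5% beside 24.6%, and for HMGB2 28.1%, 12.5% and 17.6% beside 20.3%. In each list the mitochondrial ribosomal protein genes lay within the range of these 3 groups, so these shares did not set them apart from such genes. Counted over the span plus 5 kb, fibroblast marker genes had an untreated SON peak at 6 of 7, VIM being without, against 57.1% of all genes. Markers of epithelium, endothelium and blood had one at 1 of 4, 2 of 3 and 1 of 3. At 3 and 6 days the fibroblast markers had 28.6% and 14.3%, below the 41.0% and 21.5% of all genes. Lists this short do not tell cell types apart. Peaks do not measure expression, and no RNA was measured in these samples.

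**Figure D3:**
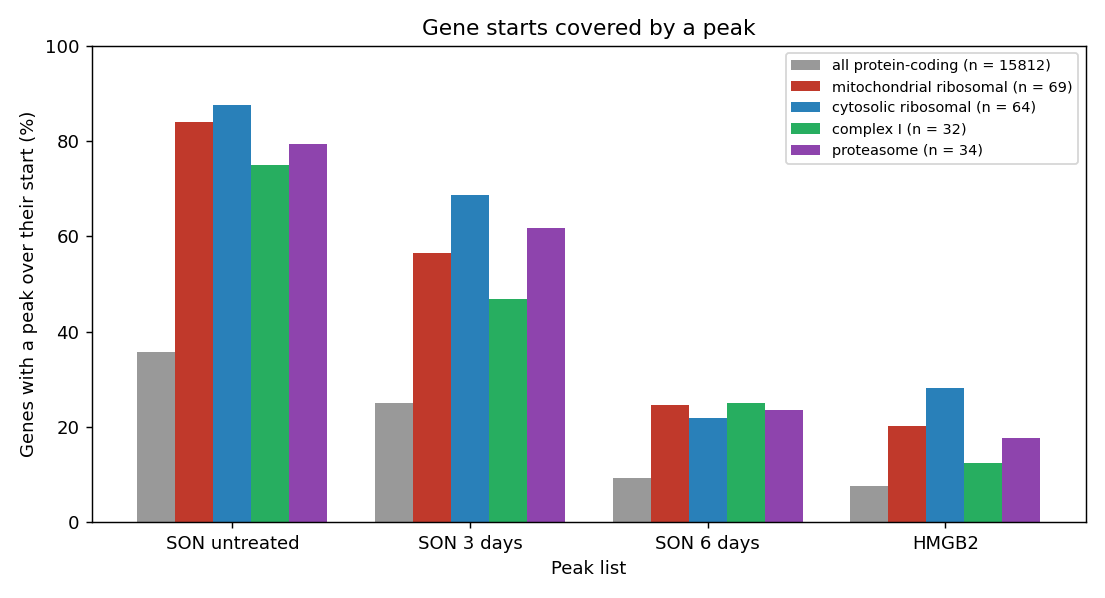
Percent of gene starts covered by a peak (y axis) in each list (x axis), for all protein-coding genes and 4 gene groups (bar colours, with the number of genes that have a RefSeq start). All 4 groups stand above the grey bar of all genes in every list, at 75% to 87.5% against 35.7% in untreated SON.

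The promoters of the 69 genes were searched on both strands over 300 bases, from 250 before to 50 after the start, for motifs given here by their letters. ETS letters (CCGGAAG, the core bound by GABP, a known regulator of mitochondrial genes) were in 29 promoters (42.0%), against 14.2% of all 15812 protein-coding promoters. YY1 letters (ATGGCGG) were in 24 (34.8%) against 7.63%, and the NRF1 half-core (GCATGCGC) in 6 (8.70%) against 4.26%. The full NRF1 palindrome, which contains the half-core, was in MRPL17 alone. TATA letters (TATAAA) were in 2 (2.90%) against 9.64%, and the CTCF core in 9 (13.0%) against 12.9%. SP1 letters (GGGCGG) were in 60.9% against 58.5%. The CCAAT box was in 29.0% against 36.3%. E-box letters (CACGTG) were in 8.70% against 8.87%. The CRE (TGACGTCA) and the exact ZNF143 motif were in none, against 2.59% and 0.373%. Of the 7 genes with a start and no SON peak, 3 held ETS and 4 YY1 letters. The letters thus also occurred without a SON peak, and 7 genes are too few to compare their shares with those of the other genes.

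Over all promoters, the motifs differed in how often an untreated SON peak covered the start. Starts were covered in 66.3% of promoters with ETS letters and 30.6% without, in 63.1% and 33.4% for YY1, in 76.5% and 33.9% for the NRF1 half-core and in 17.5% and 37.6% for TATA letters. For the CRE, which none of the 69 promoters hold, the shares were 65.4% and 34.9%. They were 44.7% and 23% for SP1, 47.5% and 34.5% for the E-box and 44.2% and 30.8% for CCAAT. Higher coverage was thus not particular to the motifs more frequent in the 69 promoters. A wider form of the ZNF143 motif with 2 free positions was added after the sequences had been read. It was in 6 of the 69 promoters (8.70%), those of MRPL19, MRPL24, MRPL42, MRPL50, MRPS22 and MRPS26, against 2.84% of all. Starts were covered in 87.1% of the 449 promoters that hold it and 34.2% of the others, and the covering peak had a median percentile of 88.6 against 71.9. MRPL24, with the strongest untreated peak of the group, holds it at 2 places, shown here as 30-base stretches with the match in capitals.
MRPL24 (chr1:156741184-156741213, minus strand): tagcggcggACTACAACTCCCagcatgctg
MRPL24 (chr1:156741123-156741152, minus strand): tacacttggACTACAACTCCCagaaagtcg
The other promoters that hold it had untreated peaks from a −log10 p of 7.63 in MRPS26 to 41.8 in MRPL50, so the letters went with strong and weak peaks among these genes. Base composition differs with these motifs, and its part in the shares was not tested.

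**Figure D4:**
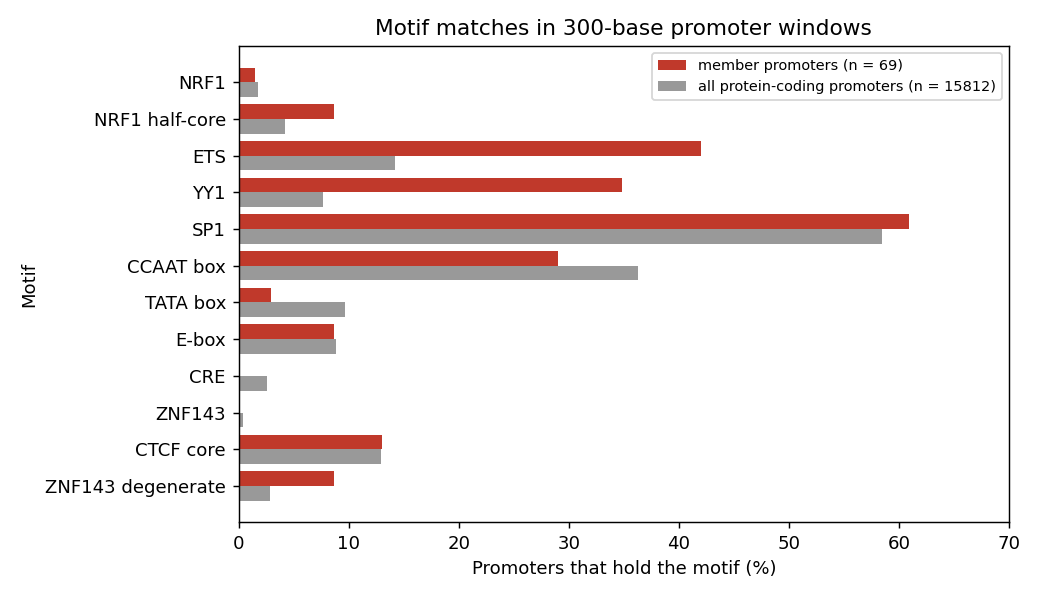
Percent of 300-base promoter windows that hold each motif (x axis) for the 69 genes with a RefSeq start and for all 15812 protein-coding promoters (bar colours), by motif name (y axis). ETS and YY1 letters stand out at 42.0% and 34.8% against 14.2% and 7.63%.

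The deposited replicate values were read at the strongest peak of each gene and, beside them, over all peaks of each list. The second set also holds weaker peaks and peaks away from genes, so the sets are unlike. The part of peak strength in their differences was not tested. In untreated cells the 2 replicates gave the same −log10 p for the strongest peak of 49 of 65 genes (75.4%), against 56.0% of all peaks in the list. Where they differed, replicate 1 was the higher at 10 genes (15.4%) and replicate 2 at 6 (9.23%), while over the list it was 15.1% and 28.8%, the opposite order. At 3 days replicate 2 was the higher at 37 of 50 genes (74.0%) against 56.3% of all peaks, and at 6 days at 15 of 24 (62.5%) against 47.0%. Equal values were given at 0 of 24 genes at 6 days, against 9.47% of all peaks. The widest gap in untreated cells was at MRPS22, with 13.1 and 7.72, at 3 days at MRPS33, with 6.31 and 28.1, and at 6 days at MRPL54, with 42.5 and 94.3. Equal values in 2 separate libraries are unusual, and how the replicates were made is not stated, so they give no measure of the error between cultures.

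**Figure D5:**
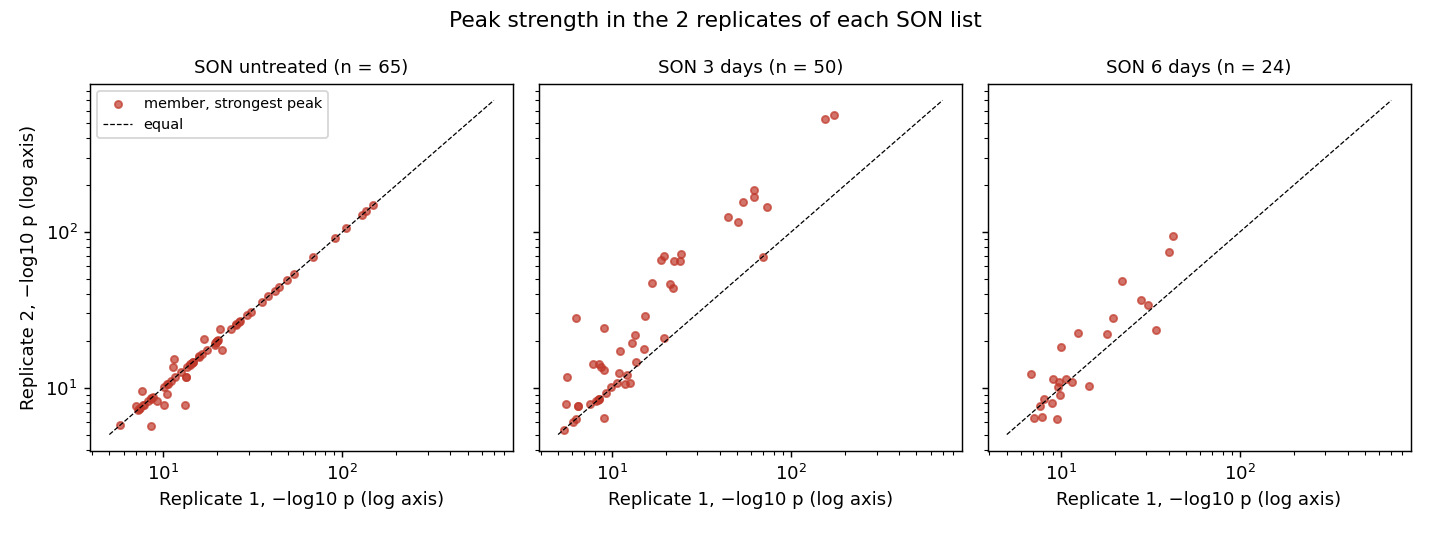
The −log10 p of the strongest peak of each gene in replicate 1 (x axis, log scale) and replicate 2 (y axis, log scale) of each SON list, with the line of equal values. Untreated points lie on the line at 49 of 65 genes, while at 3 days 37 of 50 lie above it.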

How the data were processed

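Peaks of SON and HMGB2 ChIPmentation in IMR90 cells were used as deposited. The submitters' processing notes name bcl2fastq 2.17, Bowtie2, deepTools, MACS2 and build hg38, without roles; filters, the control for peak calling and depth are not given in the sources used here. The SON lists the authors deposited have the IDR layout, with −log10 p of 2 replicates and, as the value used, the lower of them (the columns first planned for strength hold placeholders), and −log10 of the global IDR, whose largest values were 0.431, 0.447 and 0.63. The HMGB2 list the authors deposited holds −log10 p-values and q-values and, as a ratio, the fold enrichment, and a q cutoff of 0.03 stands in its peak names. These values rank peaks within their own list only.

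Peaks on chromosomes 1 to 22 and X were assigned to a gene when at least 1 bp lay in its span plus 5 kb (RefSeq, GRCh38.p14, the build named hg38). Starts came from the RefSeq promoter table, which matched 69 of 77 genes; counts and distances at starts were added after seeing the data. No test was made: groups hold 1 list each, and the genes and lists were chosen with earlier results of these data known. The overlap step was tested on simulated data. Genes named with values were the 5 strongest in each list, the 3 weakest in untreated SON, those with no peak, with peaks in every list or in unusual combinations; others were added as examples after their values were seen. Alternatives covered the window, thresholds, list lengths, nearest gene and strength measure. Computation used pandas 2.3.3, numpy 2.4.6 and scipy 1.17.1 under Python 3.11.15, with figures from matplotlib 3.10.9.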

Additional observations from a re-analysis of the deposited data

How the results depend on the processing

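Every count of genes was above the share of all protein-coding genes in the 61 alternatives run, and 48 of these stayed within 1.5 times the count reported. With the stronger 50% of each list the counts were 33 at 3 days, 14 for HMGB2 and 12 for SON and HMGB2 peaks that overlap. These were 42.9%, 18.2% and 15.6% of the genes, against 27.3%, 13.8% and 9.67% of all genes. The HMGB2 share then stood 4.43 percentage points above that of all genes, where the main setting had 11.8. A limit of 0.05 on the global IDR gave 27 at 3 days, 8 at 6 days and 8 in every SON list, and a limit of 0.01 gave 37 in untreated cells, 22 at 3 days, 8 at 6 days and 8 in every SON list. With lists of equal length the counts were 32 in untreated cells, 31 at 3 days and 13 for SON and HMGB2 peaks that overlap. These were 41.6%, 40.3% and 16.9%, against 26.3%, 27.2% and 9.96% of all genes. In these settings fewer peaks enter by construction. The count of starts covered by an untreated peak, 58, and its 3 alternatives, 43 to 60 genes, were added after seeing the data. The median percentiles stayed within the 95% binomial interval of the median in all 15 alternatives, but their side of the median of all genes changed: for HMGB2 it was 53.8 against 59.8 by −log10 p and 62.7 against 55.5 by fold enrichment, and the cause was not tested. No replicates could be left out, since the lists are merged. No paired analysis was possible because each group is 1 list. Depth is unknown, so an absent peak is not an absence of binding.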
